A study of Mus musculus with 111 samples.

Results

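Striatal astrocytes of R6/2 mice were compared with striatal astrocytes of wild-type (WT) littermates at 6 weeks of age. The comparison used 10 arrays, 2 of the 24 groups of the series, with 5 R6/2 samples (numbered 6 to 10 in the labels) and 5 WT samples (numbered 1 to 5), which were selected by their labels. The comparison, the gene lists and the named genes were chosen with earlier results of these data known. All 18194 genes named by a probe set with 1 symbol were read, and the 12209 genes above a filter on dim signals were tested. R6/2 mice are transgenic for exon 1 of human huntingtin with an expanded repeat, which they carry beside their own Htt gene, and their WT littermates carry no transgene. The transgene is present in every cell type, so a difference in sorted astrocytes can come from the astrocytes' own transgene or from the cells around them, which cannot be told apart in this design. After removal of the subventricular zone, the striata of a litter were pooled by genotype and dissociated, and cells that carried GLT1 but not CD11b at their surface were sorted. Each sample is thus a pool, the labels give neither the number nor the sex of the pooled mice, and p-values measure spread among pools, not among single mice. Further groups served for comparison: R6/2 and WT microglia (CD11b-positive, GLT1-negative) at 6 weeks with 5 samples each, R6/2 and WT cells negative for both markers at 6 weeks with 5 samples each, and astrocytes at 12 weeks with 6 R6/2 and 5 WT samples.

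Astrocytes take up synaptic glutamate through GLT1, buffer potassium through the channel Kir4.1, and make much of the cholesterol of the adult brain, which they hand to neurons in lipoprotein particles. Cholesterol is built from acetyl-CoA through mevalonate, isoprenoids and squalene, and the transcription factor SREBP2 raises the genes of this pathway together when sterols are scarce. Type I interferons act through cell surface receptors and kinases on transcription factors, among them Irf9, which bind a response element in the promoters of antiviral effector genes.

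Values are log2 array signals, and a log2 fold change is the R6/2 mean minus the WT mean, given with its standard error. Genes are described as called where limma's moderated test gave them an adjusted p below 0.05 (Benjamini-Hochberg over the 12209 genes). The fraction carried the genes of its sort, but oligodendrocyte markers were bright in it as well. Slc1a2, which encodes GLT1, had signals of 13.63, 13.50, 13.37, 13.60 and 13.54 in R6/2 samples 6 to 10, against 13.57, 13.61, 13.62, 13.62 and 13.57 in WT samples 1 to 5, and the groups overlapped (-0.07 ± 0.06, 95% interval -0.19 to 0.05). Itgam, which encodes CD11b, lay below the filter level of 5.52 in all 10 samples, at 2.96 to 3.51 in R6/2 and 3.10 to 3.45 in WT samples. Of the 15 microglia markers with a probe set, 2 passed the filter, and of 12 border macrophage and blood cell markers 0 did. None of the 21 astrocyte markers was called, and their median log2 fold change was -0.03.

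The other cells in the fraction were not constant between samples. Endothelial and mural markers averaged 5.53 to 8.49 in R6/2 samples and 6.73 to 8.99 in WT samples, and all 16 tested had a negative fold change (median -0.79) while 0 were called. Oligodendrocyte markers averaged 11.66 to 12.00 in R6/2 samples and 11.70 to 12.12 in WT samples (0 of 14 called). Astrocyte markers averaged little more, 12.44 to 12.64 in R6/2 and 12.54 to 12.67 in WT samples. The median WT level of all tested genes was 9.39. In such bulk samples, fewer cells of a type and less RNA per cell cannot be told apart. Xist, transcribed from the inactive X chromosome of females, read 11.82 to 12.75 in R6/2 samples and 11.81 to 12.36 in 4 WT samples but 4.84 in WT sample 3. WT number 3 was also low in microglia (5.46, other WT samples 11.77 to 12.33) and in the negative fraction (5.71, others 11.54 to 12.04). A high Xist signal does not exclude males from a pool. For the 4 tested sex-linked genes, Xist among them, the mean was 9.03 to 9.85 in R6/2 astrocyte samples. In WT astrocyte samples other than number 3 the mean was 8.73 to 9.60. This mean lay above the Xist signal in WT astrocyte sample 3 and below it in all other astrocyte samples. The sex make-up of the pools was not tested. With the mean of the Y-linked genes as a covariate, 152 genes were called in the comparison below in place of 146. The mouse Htt probe set, which does not test the transgene, gave -0.01 ± 0.10. Array medians of the 10 samples ran from 6.44 to 6.52, samples of a genotype correlated at 0.972 to 0.992 over all tested genes and samples of different genotypes at 0.959 to 0.986.

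R6/2 astrocytes differed from WT astrocytes in 146 genes, which is 1.2% of those tested. Of these, 101 were higher (0.827%) and 45 were lower (0.369%). The genes that rose did so by a median log2 fold change of 0.90 (0.29 to 2.99), and 44 of them by more than 2-fold. The lowest WT mean among them was 4.3, below the filter level of 5.52. Of the genes named below, WT means lay under that level in Oasl2, Oas1b, Iigp1, Gm4951, Nlrc5, Cxcl10, Foxf1, Cd109, Pcdh15, Pou4f1 and Eda2r. The sizes of these rises are uncertain. The genes that fell had a median of -0.62 (-1.42 to -0.30), and 6 of them fell by more than 2-fold. In 89 of the 101 genes every R6/2 sample lay above every WT sample (2.65% of all tested genes), and in 43 of the 45 every R6/2 sample lay below (1.85%), so that 4.5% of all tested genes had groups apart in 1 direction or the other. The count fell to 96 without WT sample 3 and to 86 without R6/2 sample 8, and it was 656 with the oligodendrocyte marker mean as a covariate.

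**Figure D1:**
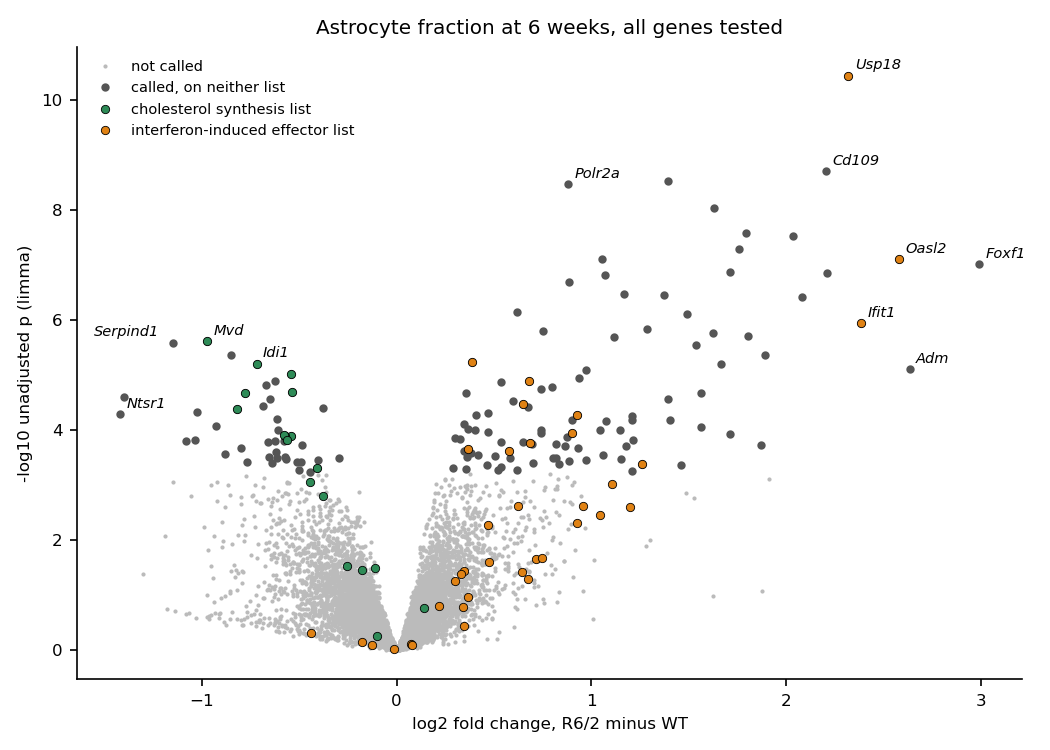
Each point is 1 of the 12209 tested genes, with the log2 fold change (R6/2 minus WT) on the horizontal axis and -log10 of the unadjusted limma p on the vertical axis. Dark grey points are called genes of neither list, green points cholesterol synthesis genes and orange points interferon-induced effectors, coloured whether called or not. All but 1 of the green points lie left of 0, and the 3 highest fold changes among the orange points are those of Oasl2, Ifit1 and Usp18.

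Genes of cholesterol synthesis fell along most of the pathway. Of 18 synthesis genes tested, 11 were lower in R6/2 astrocytes and 0 were higher, against 0.369% of all tested genes that were called lower. The median log2 fold change of the 18 genes was -0.54, against -0.01 over all tested genes, and in 14 of the 18 all R6/2 values lay below all WT values (1.85% of all tested genes). The mean signal of the sterol steps was 10.98, 10.99, 10.65, 10.86 and 11.16 in R6/2 samples 6 to 10, against 11.46, 11.36, 11.37, 11.36 and 11.36 in WT samples 1 to 5. R6/2 sample 8 was the lowest and R6/2 sample 10 the nearest to WT.

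The promoters of 4 genes that fell are shown because each holds CCAAT, a short motif known from promoters of sterol-responsive genes. Capitals mark CCAAT, or its reverse complement ATTGG, in windows of 250 bases before to 50 bases after the start of the gene in RefSeq on GRCm38.p6, written 5′ to 3′ on the strand of the gene. Mvd lies on the minus strand at chr8:122443373-122443672, Idi1 on the plus strand at chr13:8885356-8885655, Cyp51 on the minus strand at chr5:4104648-4104947 and Nsdhl on the plus strand at chrX:72918271-72918570.
Mvd: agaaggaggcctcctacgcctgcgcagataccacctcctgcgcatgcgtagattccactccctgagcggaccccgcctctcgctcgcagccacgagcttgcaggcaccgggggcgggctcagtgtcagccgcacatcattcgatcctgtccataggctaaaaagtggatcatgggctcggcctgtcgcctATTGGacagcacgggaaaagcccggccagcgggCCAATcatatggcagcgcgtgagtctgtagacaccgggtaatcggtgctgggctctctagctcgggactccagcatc
Idi1: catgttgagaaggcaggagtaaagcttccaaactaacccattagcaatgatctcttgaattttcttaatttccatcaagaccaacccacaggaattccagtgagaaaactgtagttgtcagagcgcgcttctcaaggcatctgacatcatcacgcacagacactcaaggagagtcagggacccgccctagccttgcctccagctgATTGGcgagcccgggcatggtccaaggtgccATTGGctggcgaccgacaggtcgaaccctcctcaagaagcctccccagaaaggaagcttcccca
Cyp51: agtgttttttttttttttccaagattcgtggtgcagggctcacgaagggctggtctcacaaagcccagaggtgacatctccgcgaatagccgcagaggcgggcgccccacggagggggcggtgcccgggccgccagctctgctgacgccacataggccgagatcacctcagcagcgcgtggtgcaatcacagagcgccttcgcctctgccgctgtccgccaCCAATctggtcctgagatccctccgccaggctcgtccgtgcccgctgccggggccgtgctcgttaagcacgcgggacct
Nsdhl: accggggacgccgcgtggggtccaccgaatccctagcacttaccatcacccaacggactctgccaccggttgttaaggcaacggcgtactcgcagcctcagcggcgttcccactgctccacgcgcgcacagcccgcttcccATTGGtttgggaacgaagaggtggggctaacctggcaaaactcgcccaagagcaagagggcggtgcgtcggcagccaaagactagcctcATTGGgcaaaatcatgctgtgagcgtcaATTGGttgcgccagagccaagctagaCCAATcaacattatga
Mvd and Idi1 have 2 such matches each, Cyp51 has 1 and Nsdhl has 4. With both strands searched, CCAAT was in the windows of all 15 tested cholesterol synthesis genes that could be matched by symbol, including all 8 matched genes that fell. It was in 42.9% of the 9889 tested genes with a window, in 41.1% of all 27025 genes with one, and in 18 of 35 matched genes among all 45 that fell (51.4%). A match is a description of these letters, not evidence of a bound site. A further motif, the sterol response element TCACNCCAC, was in 1 of the 15 windows (6.67%) and in 1.44% of all genes. It was in 0 of the 8 matched synthesis genes that fell and in 0 of 35 matched genes among all 45 that fell.

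The mevalonate steps held the strongest fall. Mvd, the decarboxylase that turns mevalonate diphosphate into isopentenyl diphosphate, had signals of 9.78, 9.87, 8.88, 9.52 and 9.78 in R6/2 samples, against 10.77, 10.42, 10.67, 10.44 and 10.40 in WT samples (-0.97 ± 0.15, adjusted p = 0.00107). Every R6/2 value lay below every WT value, and sample 8 stood lowest. Fdps, which joins isoprenoid units into farnesyl diphosphate, had signals of 10.49, 10.11, 10.21, 9.67 and 10.66 in R6/2 samples, against 11.14, 11, 11.02, 11.12 and 10.97 in WT samples (-0.82 ± 0.16, adjusted p = 0.00859), and the mean of its probe sets gave -0.48 (adjusted p = 0.00686). The R6/2 values were again all below the WT values and spread more widely, with an SD of 0.38 in R6/2 and 0.08 in WT samples. Idi1, which isomerises isopentenyl diphosphate, was 11.67, 11.51, 10.94, 11.30 and 11.62 in R6/2 samples, against 12.24, 12.01, 12.07, 12.27 and 12.04 in WT samples (-0.72 ± 0.12, adjusted p = 0.00223), also without overlap. Mvk, mevalonate kinase, fell by 0.54, a call that was lost without WT sample 1, WT sample 3 or R6/2 sample 8 (adjusted p 0.0581 to 0.0703). At the head of the pathway, the HMG-CoA synthase gene Hmgcs1 differed by -0.11 (adjusted p = 0.333), but the mean of its 5 probe sets gave -0.38 (adjusted p = 0.0346). Pmvk, which adds the next phosphate after Mvk, differed by -0.38 without reaching the threshold (adjusted p = 0.0828) although its groups did not overlap. Ggps1, which leads away from sterols to geranylgeranyl diphosphate, had the only positive value among the 18, 0.14 ± 0.10 (adjusted p = 0.599).

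Among the steps from squalene to cholesterol, 7 of 11 genes fell. Tm7sf2, a sterol C14 reductase, had signals of 10.30, 9.78, 9.64, 10.06 and 10.29 in R6/2 samples, against 10.91, 10.64, 10.88, 10.83 and 10.69 in WT samples (-0.78 ± 0.14, adjusted p = 0.00535). Nsdhl, which acts in the removal of the C4 methyl groups, had 10.64, 10.56, 10.15, 10.58 and 10.73 in R6/2 samples, against 11.14, 11.12, 11.17, 10.96 and 11 in WT samples (-0.54 ± 0.09, adjusted p = 0.00306). In both genes the groups were apart and R6/2 sample 8 was the lowest. Cyp51, the lanosterol demethylase, had 11.30, 11.27, 11.10, 11.11 and 11.61 in R6/2 samples, against 11.83, 11.82, 11.73, 11.89 and 11.80 in WT samples (-0.54 ± 0.10, adjusted p = 0.00535). No R6/2 value of Cyp51 reached the lowest WT value, and with the mean of its 3 probe sets the size was -0.63 but the spread was wider (adjusted p = 0.0598).

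The squalene synthase gene Fdft1 fell by 0.57, the squalene epoxidase gene Sqle by 0.58, the lanosterol synthase gene Lss by 0.56 and the C4 methyl oxidase gene Msmo1 by 0.41, and none of these groups overlapped. These 4 calls depended on single samples or on settings. In a fit limited to the 10 arrays of 6 weeks Fdft1 (adjusted p = 0.0628), Sqle (0.0819) and Msmo1 (0.0636) were not called. Fdft1 was lost without WT sample 1 (-0.54, adjusted p = 0.0544) and with the mean of its 4 probe sets (-0.31, adjusted p = 0.0874). Sqle was lost without WT sample 1 or 3 (-0.54 each, adjusted p 0.0544 to 0.0571), and Lss without WT sample 1 or 2 or R6/2 sample 8 or 9 (-0.53 to -0.50, adjusted p 0.0595 to 0.0756). Msmo1 was lost without 9 of the 10 samples, all but R6/2 sample 10 (-0.43 to -0.33, adjusted p 0.058 to 0.122), and with all samples also under no dim filter (adjusted p = 0.0595) and with arrays centred on their median (0.0564). Of the late steps, Sc5d, the sterol C5 desaturase, differed by -0.45 (adjusted p = 0.064) with groups apart, and Dhcr7, which makes cholesterol from 7-dehydrocholesterol, by -0.18 (adjusted p = 0.349). Hsd17b7 (-0.25) and Ebp (-0.10) overlapped between the groups. Over the pathway, the count of genes that fell was 6 without WT sample 1 and 8 to 12 without any other sample. Oligodendrocytes also make cholesterol, and the mean of their markers was 11.66, 11.99, 12.00, 11.69 and 11.98 in R6/2 samples, against 12.06, 12.12, 11.70, 12.11 and 12.12 in WT samples. With that marker mean as a covariate 12 synthesis genes were lower, in a fit that called 656 genes in all. The part of oligodendrocyte RNA in this result was not tested.

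**Figure D2:**
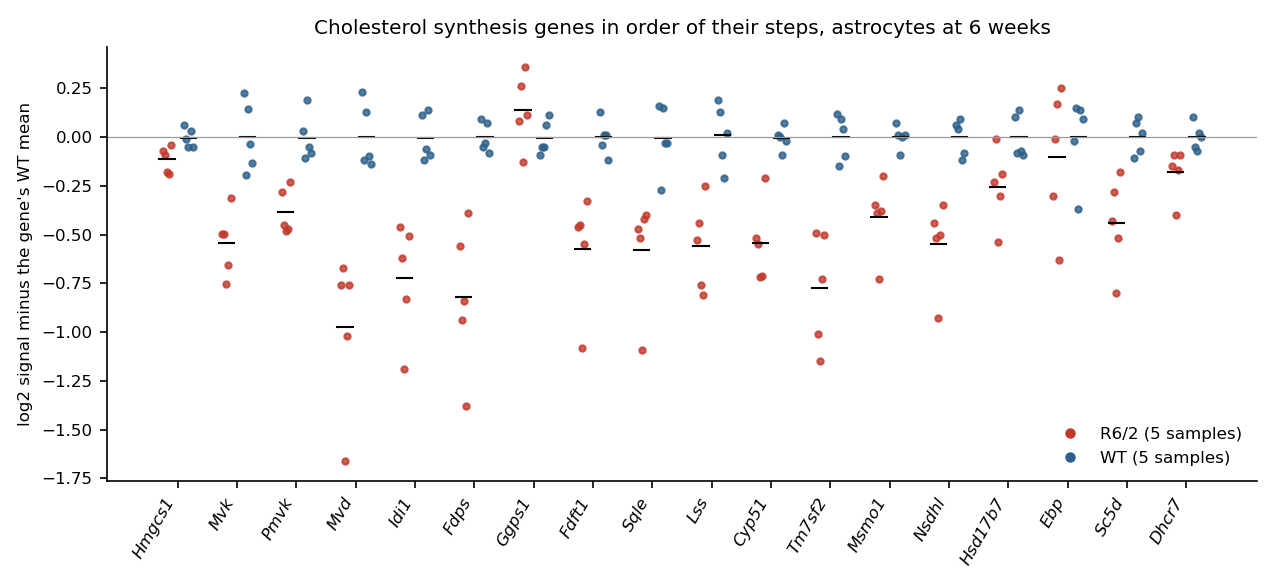
Each point is 1 sample, placed at its log2 signal minus the WT mean of that gene, for the 18 tested synthesis genes in the order of their steps. Red points left of each pair are the 5 R6/2 samples, blue points the 5 WT samples, and black bars group means. The R6/2 mean of the median gene lies at -0.54, while those of Hmgcs1, Ggps1, Ebp and Dhcr7 lie between -0.18 and 0.14.

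The genes that sense and take up sterols were not called (0 of 13, median -0.08). Of genes named here after their values were seen, Srebf2, which encodes SREBP2, gave -0.02 ± 0.08 (95% interval -0.18 to 0.14) and Insig1, the sterol-dependent brake on SREBP transport, -0.08 ± 0.07 (-0.22 to 0.06). Stard4, a carrier of cholesterol within the cell, had the most negative value of the list (-0.61 ± 0.16, adjusted p = 0.0764), with signals of 8.99 to 10 in R6/2 and 9.88 to 10.36 in WT samples that overlapped. Srebf1, which drives fatty acid synthesis, gave 0.19 (adjusted p = 0.457), and 0 of 14 fatty acid synthesis and desaturation genes were called (median -0.02). Among 10 efflux and lipoprotein genes, Lcat, which esterifies cholesterol in lipoproteins, fell by 0.50 (adjusted p = 0.0442), a call lost without 9 of the 10 samples, all but R6/2 sample 6 (-0.54 to -0.44, adjusted p 0.0529 to 0.124), and without the dim filter (adjusted p = 0.0595). Abca1, the sterol exporter, gave 0.27 (adjusted p = 0.172).

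Nfya and Nfyb, subunits of the factor NF-Y that binds CCAAT, were looked up after the motif counts were seen. Nfya read 10.13, 10.15, 10.31, 10.21 and 10.01 in R6/2 samples, against 9.71, 9.58, 9.58, 9.87 and 9.71 in WT samples (0.47 ± 0.09, adjusted p = 0.01), with no overlap. Nfyb was 0.37 ± 0.08 higher (adjusted p = 0.0156), and its call was lost without R6/2 sample 8 (0.35, adjusted p = 0.0526). No value here connects these levels with the synthesis genes.

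Interferon-induced effector genes rose, while the genes that sense viral nucleic acid or carry the interferon signal were not called. Of 37 effectors tested, 12 were higher in R6/2 astrocytes and 0 lower, against 0.827% of all tested genes that were called higher, and the median log2 fold change of the 37 was 0.62. In 16 the groups did not overlap, where 4.5% of all tested genes did not, and 25 reached an unadjusted p below 0.05 (12.6% of all tested genes). The mean signal of the effectors was 7.45, 7.48, 7.72, 7.61 and 7.53 in R6/2 samples 6 to 10, against 6.88, 7.16, 6.87, 6.85 and 6.98 in WT samples 1 to 5. All R6/2 means lay above all WT means, and the highest WT mean was that of sample 2. When the endothelial and mural marker mean entered as a covariate, 20 effectors were higher. The lists of 8 receptors and transducers and 13 regulatory factors and sensors had 0 calls each, with medians of -0.08 and 0.08.

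Promoters of 2 effector genes are shown because one of them, Ifit1, rose in astrocytes and the other, Ifit3, was not called there although both rose in microglia. Capitals mark GAAANNGAAA, the core of the interferon-stimulated response element, or its reverse complement, in the same RefSeq windows. Ifit1 lies on the plus strand at chr19:34640639-34640938 and Ifit3 on the plus strand at chr19:34583279-34583578.
Ifit1: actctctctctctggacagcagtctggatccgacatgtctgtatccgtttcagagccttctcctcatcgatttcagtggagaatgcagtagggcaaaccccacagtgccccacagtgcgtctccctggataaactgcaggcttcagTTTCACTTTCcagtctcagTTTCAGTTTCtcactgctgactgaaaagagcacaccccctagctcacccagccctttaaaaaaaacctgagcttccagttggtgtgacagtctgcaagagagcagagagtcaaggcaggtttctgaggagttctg
Ifit3: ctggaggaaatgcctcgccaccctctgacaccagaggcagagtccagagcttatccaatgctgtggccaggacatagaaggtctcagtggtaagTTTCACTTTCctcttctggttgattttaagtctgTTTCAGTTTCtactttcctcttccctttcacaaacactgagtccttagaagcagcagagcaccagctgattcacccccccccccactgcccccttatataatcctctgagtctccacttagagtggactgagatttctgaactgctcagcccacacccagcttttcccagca
Both windows hold 2 matches. The motif was in the windows of 12 of 28 effectors matched by symbol (42.9%), of which 1 of 6 matched genes that rose, and in 3.99% of all 27025 genes. As above, no match says only that these letters are not in this window.

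The largest effector changes were 5.00-fold to 5.99-fold. The 5.99-fold change is that of Oasl2, whose WT signals all lay below the filter level. Its size is therefore uncertain, although every R6/2 signal of Oasl2 lay above that level. Usp18, a protease that removes ISG15 and limits interferon receptor signalling, had signals of 8.46, 9.30, 8.89, 9.01 and 8.79 in R6/2 samples, against 6.36, 6.55, 7.03, 6.42 and 6.49 in WT samples (2.32 ± 0.18, adjusted p = 4.34e-07). Oasl2, of the oligoadenylate synthetase family, had 6.51, 7.16, 6.61, 7.38 and 6.80 in R6/2 samples, against 4.50, 4.67, 4.44, 4.45 and 3.49 in WT samples (2.58 ± 0.31, adjusted p = 9.38e-05). Ifit1, which binds viral RNA, had 7.71, 8.59, 8.56, 8.28 and 8.06 in R6/2 samples, against 6.09, 6.55, 6.11, 4.82 and 5.68 in WT samples (2.39 ± 0.35, adjusted p = 0.000655). In all 3 genes the lowest R6/2 sample was number 6, and it still lay above the highest WT sample.

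Smaller rises were seen in Rtp4 (0.93 ± 0.18, adjusted p = 0.0105), Dtx3l, a ubiquitin ligase (0.68 ± 0.12, adjusted p = 0.00383), its partner Parp9 (0.65 ± 0.12, adjusted p = 0.00748), and Ifi27 (0.39 ± 0.06, adjusted p = 0.00217), all with groups apart. Ifi27 had 12.15 to 12.26 in R6/2 samples, against 11.76 to 11.92 in WT samples. Rtp4 missed the threshold with the mean of its 2 probe sets (0.64, adjusted p = 0.0553).

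Besides Rtp4, 5 of the 12 calls depended on single samples or on settings. Oas1b (0.90) was lost without WT sample 1 or R6/2 sample 8 (adjusted p 0.0544 to 0.0607). Trim25 (0.69), a ligase that activates the RNA sensor RIG-I, was lost without WT sample 1, 2 or 5 or R6/2 sample 6 or 8 (adjusted p 0.0505 to 0.0773), and Xaf1 (0.58) without WT sample 3 or R6/2 sample 7, 8 or 10 (adjusted p 0.0526 to 0.0915). Parp12 (0.37) was lost without WT sample 2 or 3 or R6/2 sample 6, 9 or 10 (adjusted p 0.057 to 0.081). Iigp1, an immunity-related GTPase, was 1.26 higher with overlapping groups, and was lost without each sample except WT sample 5 and R6/2 sample 10 (1.15 to 1.33, adjusted p 0.0566 to 0.116). With all samples kept, Trim25 (adjusted p = 0.0859), Xaf1 (0.108) and Parp12 (0.103) were not called in the fit of the 10 arrays of 6 weeks. The mean of the 2 probe sets of Xaf1 gave 0.29 (adjusted p = 0.412).

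Irf9, a DNA-binding factor of interferon signalling, read 8.73, 8.93, 8.93, 9.21 and 8.47 in R6/2 samples, against 8.26, 8.14, 8.21, 8.06 and 8.10 in WT samples. Its groups did not overlap, but the test did not reach the threshold (0.70 ± 0.18, adjusted p = 0.0632). With the fit limited to the 10 arrays of 6 weeks it was called (adjusted p = 0.0227). Ifih1, the RNA sensor MDA5, gave 0.90 ± 0.23 (adjusted p = 0.0679) and was called in the fit of 10 arrays (adjusted p = 0.0227). Stat2 gave 0.22 (adjusted p = 0.473) and Irf7, a regulatory factor itself induced by interferon, 0.48 (adjusted p = 0.521).

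Interferon-inducible genes outside the effector list were found among the strongest rises. Gm4951, an interferon-inducible GTPase-like gene, was 2.08 ± 0.28 higher (adjusted p = 0.00025) and Nlrc5, a transactivator of MHC class I genes, 1.87 ± 0.41 higher (adjusted p = 0.0222). Nlrc5 was lost without WT sample 2 or 3 or R6/2 sample 7 or 8 (1.61 to 1.83, adjusted p 0.0696 to 0.0731). The guanylate-binding protein gene Gbp6, named after its value was seen, had 8.49, 8.48, 8.22, 8.41 and 8.0 in R6/2 samples, against 7.25, 6.55, 7.33, 6.95 and 7.09 in WT samples (1.29 ± 0.19, adjusted p = 0.000784). None of 12 antigen presentation genes was called (median 0.14).

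**Figure D3:**
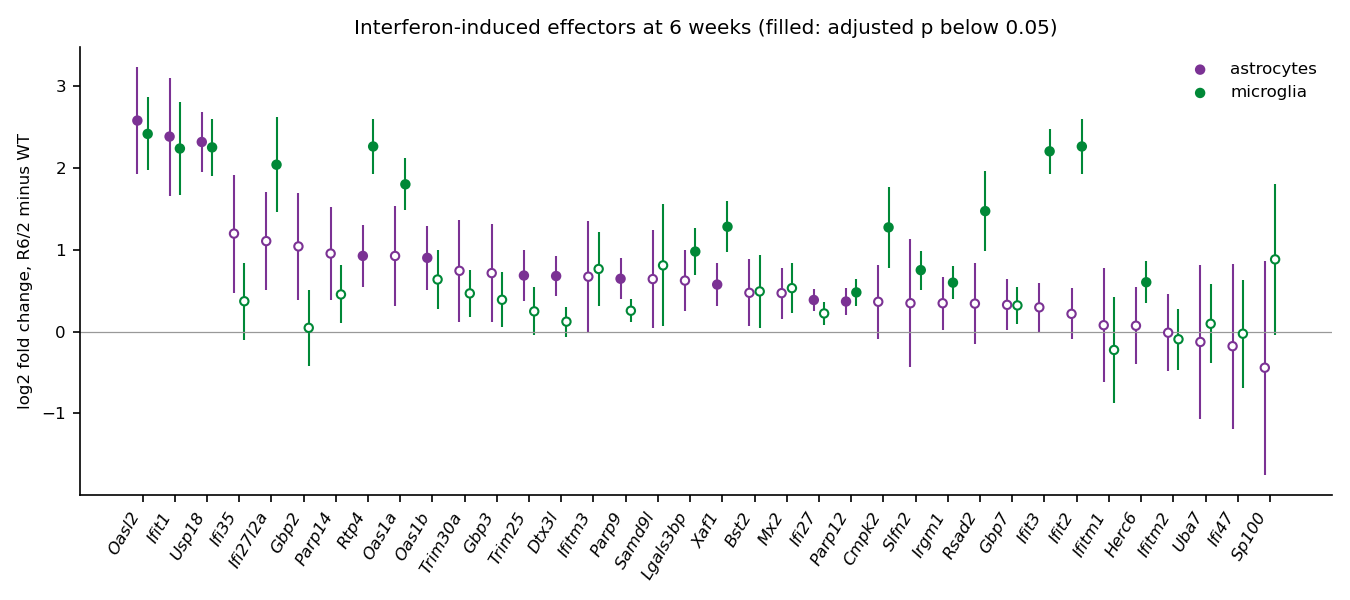
Points are log2 fold changes (R6/2 minus WT) of interferon-induced effectors in astrocytes (purple) and microglia (green) at 6 weeks, bars are 95% intervals from limma, and filled points have an adjusted p below 0.05. Usp18, Oasl2 and Ifit1 have filled points above 2 in both fractions, whereas Ifit2 and Ifit3 are filled above 2 in microglia and lie at 0.22 and 0.30, open, in astrocytes.

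Interferon-induced effectors were also higher in R6/2 microglia at 6 weeks, and for some of them the effect differed from that in astrocytes. Of 41 effectors tested with microglia in the fit, 20 were higher in R6/2 microglia (0.442% of all genes were called higher there, 0.449% lower and 0.891% in either direction), as were 5 of 15 sensors and 2 of 9 transducers. The effect in astrocytes minus the effect in microglia was called in 52 of 13353 genes (0.389%), 30 with a more positive (0.225%) and 22 with a more negative effect in astrocytes (0.165%). Of the 52 genes, 20 lay below 5.52, the filter level of the astrocyte arrays, in both genotypes in 1 of the fractions, 10 in astrocytes and 10 in microglia, where no effect can be read. With each array centred on its median the split was 26 and 34 of 60. Leaving out 1 sample number gave 24 to 53 such genes, and 33 or fewer without WT number 2, 3 or 4 or R6/2 number 8, 9 or 10. An unadjusted p below 0.05 was reached by 1170 genes.

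Ifit3 averaged 10.17 ± 0.14 in R6/2 and 9.87 ± 0.30 in WT astrocytes, but 10.95 ± 0.25 in R6/2 and 8.74 ± 0.10 in WT microglia (SD, n = 5 each). The effects differed by -1.91 ± 0.19 (limma adjusted p = 2.99e-05). Its neighbour Ifit2 had 8.21 ± 0.31 in R6/2 and 7.99 ± 0.26 in WT astrocytes, against a change of 2.27 in microglia, and the effects differed by -2.05 (adjusted p = 0.000109). Rtp4 rose in both fractions but less in astrocytes, with a difference of -1.34 (adjusted p = 0.00785). Oas2 and Ifi209 rose in microglia by 1.83 and 1.60, whereas in astrocytes their means lay below the filter level in both genotypes and no effect can be read, at 5.25 to 5.69 and 2.69 to 3.08 in R6/2 and 5.30 to 5.57 and 2.89 to 3.26 in WT samples. Irf7 rose by 1.81 in microglia, and its difference of -1.33 (adjusted p = 0.0183) was lost without number 2 or 3 of WT or 8, 9 or 10 of R6/2 (adjusted p 0.0524 to 0.0623).

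For Usp18, Oasl2 and Ifit1 no difference was called. The effects of Usp18 differed by 0.07 (95% interval -0.43 to 0.56), those of Oasl2 by 0.16 (-0.47 to 0.79) and those of Ifit1 by 0.15 (-0.65 to 0.95). Microglial markers in the astrocyte fraction are given above, with Itgam below the filter level in every sample and 13 of 15 markers below it on average.

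Cxcl10 rose in astrocytes and was not called in microglia. This chemokine gene, also induced by interferon, had 5.99, 7.07, 6.79, 7.29 and 6.46 in R6/2 astrocytes, against 5.30, 5.41, 5.28, 4.89 and 5.43 in WT astrocytes, without overlap. Its rise of 1.46 ± 0.35 (adjusted p = 0.0381) was lost without each sample except R6/2 sample 6 (1.32 to 1.53, adjusted p 0.0592 to 0.112). In microglia the change was -0.32 (adjusted p = 0.485), and the difference of 1.78 ± 0.28 was called (adjusted p = 0.00517). That difference was called without each sample in turn. All WT astrocyte signals of Cxcl10 lay below the filter level, so the sizes of its rise and of the difference are uncertain.

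The largest rises outside the interferon genes were in genes of varied roles. Foxf1, a forkhead transcription factor of mesenchymal and mural development, had 8.22, 7.84, 8.49, 8.42 and 7.93 in R6/2 samples, against 4.74, 6.50, 4.20, 4.54 and 5.95 in WT samples (2.99 ± 0.37, adjusted p = 0.000105), and the mean of its 2 probe sets gave 1.63 (adjusted p = 0.000352). All R6/2 samples lay above 7.8 and all WT samples at or below 6.50, the highest being WT samples 2 and 5. Adm, which encodes the vasodilator peptide adrenomedullin, had 8.26, 9.21, 9.50, 8.11 and 8.78 in R6/2 samples, against 5.86, 7.57, 4.63, 5.80 and 6.82 in WT samples (2.64 ± 0.44, adjusted p = 0.00268), again with WT samples 2 and 5 highest. The same WT samples had the highest endothelial and mural marker means, 8.99 and 8.41, against 6.73 to 7.43 in the other WT samples and 5.53 to 8.49 in R6/2 samples. With that marker mean as a covariate, Foxf1 was 3.29 (adjusted p = 7.46e-07) and Adm 2.89 (adjusted p = 0.000325) higher.

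Mmp2, a matrix metalloproteinase, had 7.58, 8.56, 8.98, 8.85 and 8.70 in R6/2 samples, against 6.66, 6.01, 7.12, 5.88 and 5.95 in WT samples (2.21 ± 0.28, adjusted p = 0.00013). Cd109, a surface protein of the α2-macroglobulin family, had 6.99, 7.13, 6.38, 6.59 and 6.64 in R6/2 samples, against 4.47, 4.36, 4.53, 4.82 and 4.52 in WT samples (2.21 ± 0.21, adjusted p = 1.01e-05, or 1.46 with the mean of its probe sets). Neither gene overlapped between the groups. The WT signals of Cd109 all lay below the filter level, so the size of its rise is uncertain. Tnfrsf13c, a receptor of the cytokine BAFF known from B cells, was 2.04 ± 0.23 higher (adjusted p = 5.13e-05) and the protocadherin gene Pcdh15 1.89 ± 0.30 higher (adjusted p = 0.0017, or 1.25 with the mean of its probe sets). Border macrophage and blood cell markers lay below the filter in this fraction, with means of 3.99 to 4.17 in R6/2 and 3.95 to 4.20 in WT samples.

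Other strong rises were in single genes of different kinds. Pou4f1, a homeodomain factor of sensory neurons, was 1.80 ± 0.20 higher (adjusted p = 5.13e-05), the RNA-binding protein gene Igf2bp3, mainly of foetal tissue, 1.76 ± 0.21 higher (adjusted p = 7.66e-05, or 0.88 with the mean of its probe sets) and the proto-oncogene Myb 1.72 ± 0.21 higher (adjusted p = 0.00013). Polr2a, the largest subunit of RNA polymerase II, had 11.07, 11.45, 11.45, 11.49 and 11.22 in R6/2 samples, against 10.60, 10.35, 10.49, 10.52 and 10.32 in WT samples (0.88 ± 0.09, adjusted p = 1.01e-05). Its groups were far apart relative to their spread. Among 16 tested homeobox and other developmental regulators that Polycomb represses, Pou4f1 was the only gene called (median 0.13), and 0 of 5 proliferation genes was called.

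2 genes known mainly from neurons were also among the rises. Uchl1, a ubiquitin hydrolase abundant in neurons, had 10.04, 10.71, 11.08, 10.12 and 10.91 in R6/2 samples, against 9.13, 9.34, 9.03, 9.40 and 9.09 in WT samples (1.37 ± 0.18, adjusted p = 0.00025). The noncoding host gene Snhg11 was 1.80 ± 0.27 higher (adjusted p = 0.000916, or 1.04 with the mean of its probe sets). Uchl1 was the only one of 8 tested neuronal markers that was called (median 0.12), and the list averaged 6.27 to 6.79 in R6/2 and 6.20 to 6.60 in WT samples. Foxp1, a transcription factor of striatal projection neurons, was 0.67 ± 0.13 higher (adjusted p = 0.00826), the only call among 9 medium spiny neuron genes (median -0.32), and it was not called with the mean of its 8 probe sets (0.40, adjusted p = 0.144). The part of neuronal RNA in these results was not tested.

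**Figure D4:**
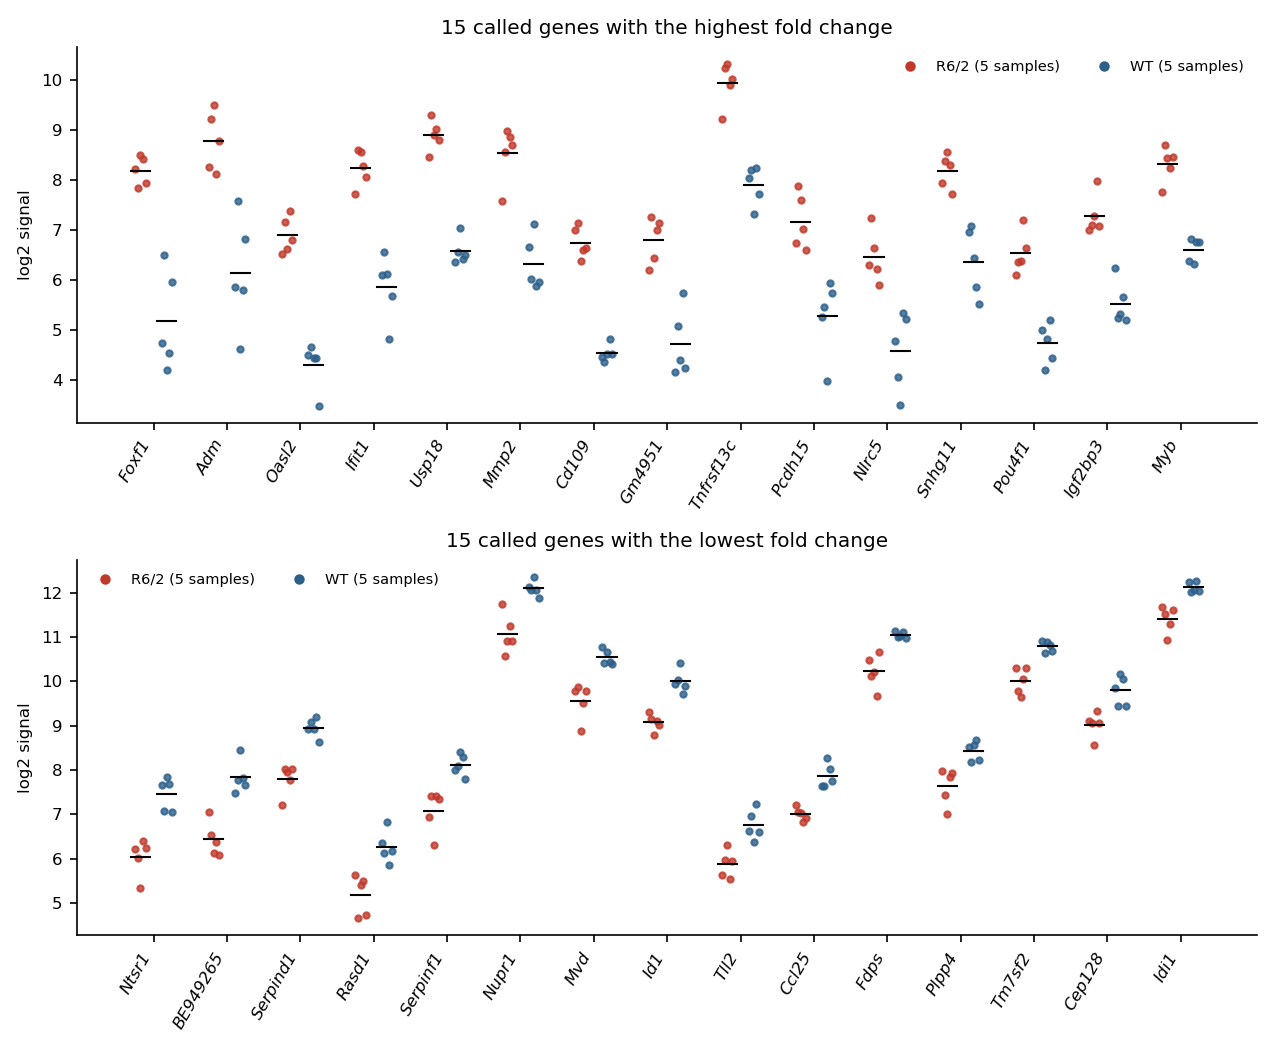
Points are the log2 signals of the 5 R6/2 (red, left of each pair) and 5 WT (blue) samples, and black bars are group means, for the 15 called genes with the highest fold change (top) and the 15 with the lowest (bottom). In none of the 30 genes do the groups overlap, and WT samples spread widely in Foxf1 and Adm.

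The largest fall was 2.68-fold, in Ntsr1. This neurotensin receptor gene had 6.21, 6.02, 5.34, 6.39 and 6.24 in R6/2 samples, against 7.66, 7.07, 7.84, 7.69 and 7.04 in WT samples (-1.42 ± 0.28, adjusted p = 0.0102). The transcript BE949265, which has no named function in the annotation used, fell by 1.40 (adjusted p = 0.00617). Serpind1, heparin cofactor II, had 7.20, 8.02, 7.96, 7.78 and 8.02 in R6/2 samples, against 8.92, 9.07, 8.92, 9.19 and 8.64 in WT samples (-1.15 ± 0.18, adjusted p = 0.0011). The groups of all 3 were apart. Nupr1, a stress-induced chromatin protein, had 11.75, 10.57, 10.90, 11.25 and 10.91 in R6/2 samples, against 12.12, 12.07, 12.36, 12.06 and 11.88 in WT samples (-1.02 ± 0.20, adjusted p = 0.00975). Its R6/2 sample 6 came nearest to the WT samples. The chemokine gene Ccl25 fell by 0.85 ± 0.14 (adjusted p = 0.0017).

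2 other falls depended on single samples. Rasd1, a dexamethasone-inducible Ras protein, fell by 1.08 (adjusted p = 0.0206) and lost its call without WT sample 1 or 3 or R6/2 sample 7 or 10 (adjusted p 0.052 to 0.0671) or in the fit of the 10 arrays of 6 weeks (0.0506). Serpinf1, which encodes the secreted factor PEDF, fell by 1.04 (adjusted p = 0.0203) and lost its call without WT sample 3 or 4 or R6/2 sample 8 (adjusted p 0.0584 to 0.0625). None of 14 glucocorticoid-induced genes was called.

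Within the developmental signalling list (32 tested, 1 higher, 2 lower, median -0.01), the called members were Id1, Id3 and Dll1. Other members tied to BMP signalling, among them Id2, Id4, Smad6 and Smad7, were not among the calls. Id1, an inhibitor of DNA binding raised by BMP signalling, had 9.31, 9.14, 8.79, 9.10 and 9.01 in R6/2 samples, against 9.93, 10.02, 10.41, 9.72 and 9.90 in WT samples (-0.93 ± 0.19, adjusted p = 0.0147), without overlap. It missed the threshold without WT sample 3 or R6/2 sample 8 (adjusted p 0.051 to 0.0529). Id3, its relative, fell by 0.63 (adjusted p = 0.0206) and was lost without WT sample 3 or R6/2 sample 7 or 8 (adjusted p 0.0641 to 0.0737). Smoc1, a secreted BMP antagonist that is on no list and was named after its value was seen, had 9.97, 10.30, 10.52, 10.20 and 10.37 in R6/2 samples, against 9.41, 9.38, 9.26, 9.39 and 9.50 in WT samples (0.88 ± 0.11, adjusted p = 0.000164). The Notch ligand gene Dll1 was 0.93 higher (adjusted p = 0.0246) and lost its call without WT sample 1, 2 or 3 or R6/2 sample 8 or 10 (adjusted p 0.0505 to 0.0818).

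Outside cholesterol synthesis, no gene was called at this age on the following lists of homeostatic tasks. None of 18 glutamate and GABA handling genes was called (median -0.07), nor any of 17 genes for potassium, chloride and water handling and gap junctions (median -0.03), of 12 calcium signalling genes and receptors (median 0.02) or of 23 glycolysis and glycogen genes (median -0.02). Kcnj10, which encodes Kir4.1, gave -0.13 (95% interval -0.29 to 0.04), and Aqp4, the water channel of endfeet, -0.03 (-0.18 to 0.13). Grm3, a glutamate receptor of adult astrocytes, had the lowest value of its list, -0.48 ± 0.15 (adjusted p = 0.145), with 12.17 to 12.69 in R6/2 and 12.64 to 13.24 in WT samples. S100b lay at 11.57 to 11.73 in R6/2 and 11.14 to 11.57 in WT samples (0.25 ± 0.08, adjusted p = 0.155), and it was called with the mean of its 2 probe sets (0.28, adjusted p = 0.0306). Aldh1l1, a folate enzyme used as an astrocyte marker, gave -0.18 (-0.40 to 0.04).

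On the 3 lists of reactive astrocyte genes 4 genes were called, all higher, where 0.827% of all tested genes were called higher. Gfap, the intermediate filament of reactive astrocytes, had 8.79, 8.86, 8.92, 7.45 and 9.20 in R6/2 samples, against 9.21, 8.74, 7.38, 9.58 and 8.51 in WT samples. The groups overlapped fully, 1 sample of each was low, and the interval of the difference was wide (-0.82 to 0.75). Vim, vimentin, was 0.53 ± 0.13 higher (adjusted p = 0.041) with overlap, a call lost without each sample except WT sample 2 and R6/2 sample 7 (0.47 to 0.54, adjusted p 0.0677 to 0.117), without the dim filter (0.0551) and in the fit of the 10 arrays of 6 weeks (0.0621). Of 10 shared reactive genes 2 were called (Vim and Cxcl10, median -0.02), of 9 in the neuroinflammatory set 1 (Iigp1, median 0.34) and of 6 in the ischaemic set 1 (Cd109, median 0.02). Among 17 synapse-directed secreted proteins, the thrombospondin gene Thbs2 was 1.21 higher (adjusted p = 0.0204) with overlap, lost without WT sample 3 or 4 or R6/2 sample 7 or 8 (adjusted p 0.0524 to 0.0737) or in the fit of the 10 arrays of 6 weeks (0.0711). The proteoglycan gene Vcan fell by 0.62 (adjusted p = 0.0275), lost without WT sample 2, 4 or 5 or R6/2 sample 7, 8 or 10 (adjusted p 0.0554 to 0.0908).

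None of 22 heat shock and unfolded protein genes was called (median -0.09), of 16 clock genes (median -0.08) or of 14 immediate early genes (median -0.18). Of 14 p53 target and DNA damage genes, 1 was called. That gene, Eda2r, a receptor induced by p53, was 1.71 ± 0.36 higher (adjusted p = 0.0176), with 5.10 to 6.70 in R6/2 and 3.67 to 4.95 in WT samples. Its call was lost without WT sample 3 or 4 or R6/2 sample 8 or 9 (adjusted p 0.0514 to 0.0679).

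**Figure D5:**
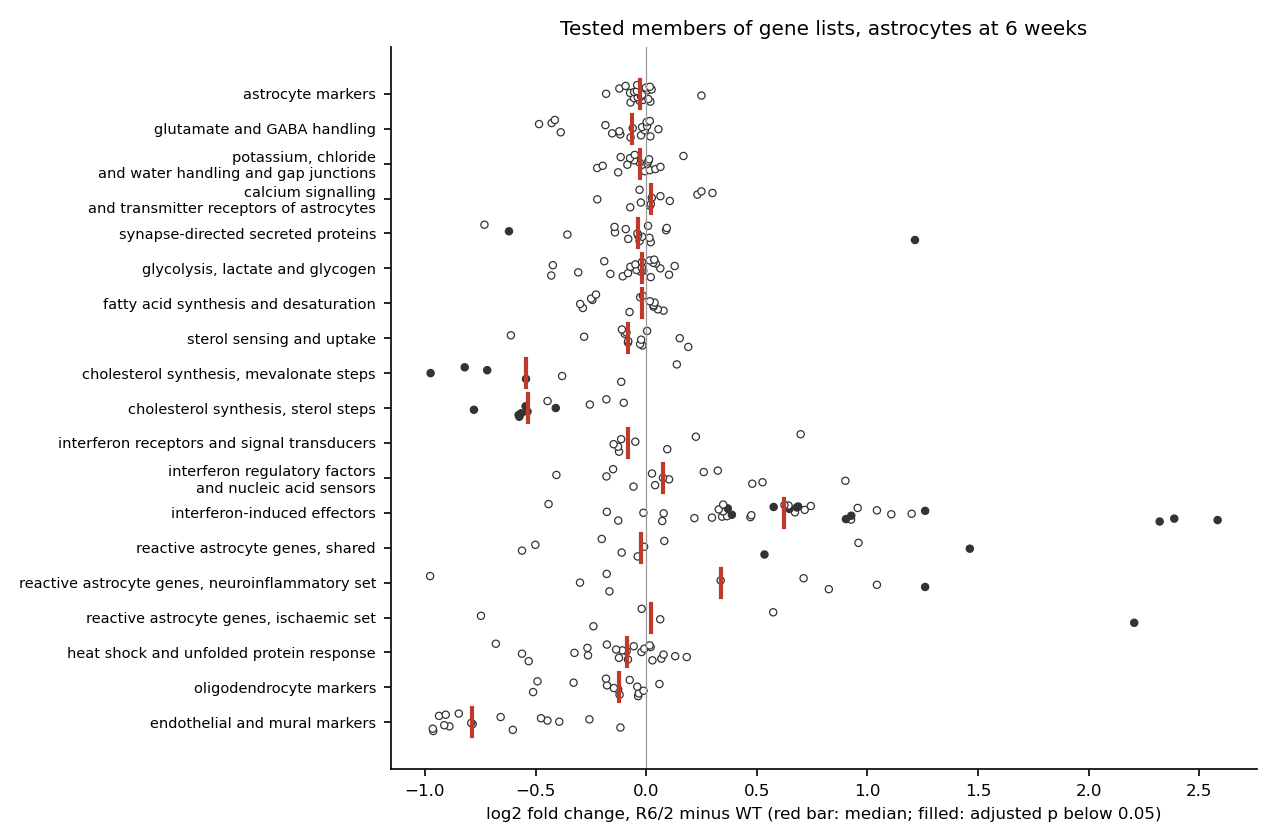
Each circle is 1 tested gene at its log2 fold change (R6/2 minus WT), in a band for each of 19 gene lists, with filled circles for an adjusted p below 0.05 and a red bar at the median of the list. Both cholesterol synthesis bands have medians near -0.54, the effector band has a median of 0.62, and the endothelial and mural band lies wholly below 0 with no filled circle.

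Beyond interferon genes, the fractions differed in both directions. The effects on Serpind1 and Serpinf1 were more negative in astrocytes (by -1.13 and -1.11), and both calls were lost without single sample numbers. Polr2a, Cd109, Mmp2 and Mest were on the positive side. Polr2a changed by -0.10 in microglia (adjusted p = 0.617) and the effects differed by 0.98 ± 0.12 (adjusted p = 0.000308). Cd109 had 3.50 ± 0.27 in R6/2 and 3.57 ± 0.28 in WT microglia (SD, n = 5 each), below 5.52, the filter level of the astrocyte arrays, where no effect can be read. Mmp2 differed by 2.29 (adjusted p = 0.00517), with a mean of 10.53 in R6/2 and 10.61 in WT microglia. Mest, an imprinted gene, was 0.36 ± 0.06 higher in R6/2 astrocytes (adjusted p = 0.00535) and differed by -0.34 in microglia (adjusted p = 0.0219), a difference of 0.69 (adjusted p = 0.00178). The differences of Polr2a, Mmp2 and Mest were called without each sample in turn. In the negative fraction Polr2a changed by 0.71 (limma adjusted p = 0.000145), Mmp2 by 1.8 (0.00124) and Serpind1 by -1.06 (0.0477). Mest (0.33, adjusted p = 0.0583), Cd109 (0.73, 0.105) and Serpinf1 (-0.20, 0.691) were not called there. For none of these genes was the difference between astrocytes and the negative fraction called (adjusted p 0.0886 to 0.996).

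Of the 101 genes that rose in astrocytes, 8 were also called higher in microglia, which is 7.92% of the astrocyte and 13.6% of the 59 microglial genes. None of the 45 that fell was called lower in microglia. No cholesterol synthesis gene was called in microglia (0 of 18, median -0.14), and for none was the difference between the fractions called. Among the 140 called genes that could be tested in both, 29 had effects that differed, some of them in genes below the filter level in microglia.

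In the negative fraction, whose cells the labels do not name, more of these genes were called. Of the 101 genes, 40 were also called higher there, which is 39.6% of the astrocyte and 13.8% of the 289 genes that were higher in the negative fraction (2.23% of all genes there), and 8 of the 45 were also called lower (17.8% of the astrocyte and 10.5% of the 76 genes that were lower there, 0.587% of all genes). In either direction the contrast called 2.82% of genes in the negative fraction. The effects differed in 12 of 12944 genes (0.0927%), 3 with a more positive (0.0232%) and 9 with a more negative effect in astrocytes (0.0695%), or 5 and 8 with arrays centred on their medians, and 860 genes had an unadjusted p below 0.05. With the replicate number as a block, the effects of 19 genes differed, 6 more positive and 13 more negative. Without WT number 4 the effects of 4 genes differed, and the number was 5 without R6/2 number 10, 6 without WT number 2 or R6/2 number 8, and 7 without WT number 1. Of 145 called astrocyte genes that could be tested, 4 had effects that differed. Of 18 cholesterol synthesis genes, 3 were lower in the negative fraction (Idi1, Cyp51 and Msmo1, median of the list -0.29). For 0 of them was the difference from astrocytes called. Of 40 interferon-induced effectors tested there, 6 were higher (2.23% of all genes, median of the list 0.26), and the difference from astrocytes was called for 0.

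Foxf1 gave the widest gap between these fractions. It had 8.82 ± 0.75 in R6/2 and 9.47 ± 0.18 in WT negative cells (SD, n = 5 each), and its effects differed by 3.64 (limma adjusted p = 0.00614), or by 1.95 with the mean of its 2 probe sets (adjusted p = 0.0193). Eya4, a transcriptional cofactor of development, was 0.53 higher in R6/2 astrocytes (adjusted p = 0.00393, or 0.36 and 0.0718 with the mean of its probe sets) and 1.93 higher in negative cells, a difference of -1.40 (adjusted p = 0.00614). Dok7 and Izumo4 were 1.48 and 0.54 higher in R6/2 negative cells but were -0.09 and -0.22 in astrocytes, where neither was called (adjusted p = 0.817 and 0.308). Their effects differed by -1.57 and -0.76 (adjusted p = 0.00614 each). The differences of Foxf1, Dok7, Izumo4 and Eya4 held without each sample in turn, and that of Eya4 was lost with the mean of its 4 probe sets (-0.67, adjusted p = 0.0742).

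At 12 weeks the same contrast called 3507 genes, 28.7% of those tested, in a fit that shares its estimate of spread with 6 weeks. The effect at 12 weeks minus the effect at 6 weeks was called in 141 genes (1.15%), 90 more positive (0.737%) and 51 more negative (0.418%) at 12 weeks. Of the 146 genes called at 6 weeks, 20 had effects that differed. In 11 of the rises and 8 of the falls the effect was larger at 12 weeks, and in 1 rise it was smaller. Leaving out 1 sample of 6 weeks gave 53 to 187 such genes, with 53 to 83 without WT sample 2, 4 or 5 or R6/2 sample 6, 7, 9 or 10.

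Cholesterol synthesis at 12 weeks had 17 of 18 genes lower, against 14.2% of all tested genes, with a median of -0.93. Cyp51 was 9.79 ± 0.13 in 6 R6/2 and 11.12 ± 0.17 in 5 WT samples of that age (SD), and its effect was more negative by -0.79 (limma adjusted p = 0.00768). Msmo1 was more negative by -0.80 (adjusted p = 0.00768). Both differences were lost with the mean of the probe sets (adjusted p = 0.0861 and 0.149). Those of Mvd (-0.86, adjusted p = 0.0466) and Idi1 (-0.73, adjusted p = 0.0325) were lost without several samples each, Mvd without all but WT sample 1 and R6/2 sample 8 (adjusted p 0.0546 to 0.0985), and Idi1 without WT sample 2, 3 or 5 or R6/2 sample 6, 7 or 10 (adjusted p 0.0513 to 0.0743). With all samples kept, Mvd was lost with the mean of its probe sets (adjusted p = 0.0536) and without the dim filter (0.0618), and Idi1 with the mean of its probe sets (0.0638).

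Of the interferon effectors, 29 of 37 were higher at 12 weeks (14.5% of all tested genes, median 0.93). The effect on Rtp4 was more positive by 1.35 (adjusted p = 0.0147), lost with the mean of its 2 probe sets (0.84, adjusted p = 0.0724), and that on Gbp6 by 1.66 (adjusted p = 0.00504). For Usp18, at 3.25 at 12 weeks, the difference of 0.93 was not called (adjusted p = 0.0711). The genes with the widest difference between ages had not been called at 6 weeks. Kazald1, a secreted protein related to IGF-binding proteins, gave 0.42 at 6 weeks (adjusted p = 0.217), with 6.42 to 7.06 in R6/2 and 6.03 to 6.63 in WT samples, and 3.45 at 12 weeks, a difference of 3.03 (adjusted p = 5.85e-08). Fxyd6, a modulator of the sodium pump, gave 0.17 at 6 weeks (adjusted p = 0.83) and 3.15 at 12 weeks, a difference of 2.98 (adjusted p = 9.09e-05). Among genes called at both ages, the effect on Snhg11 was more positive by 2.66 (adjusted p = 0.00155) and that on Uchl1 by 1.27 (adjusted p = 0.0229). In contrast to 0 of 18 glutamate handling genes at 6 weeks, 9 were lower at 12 weeks, Grm3 with -0.98 (adjusted p = 5.78e-05), but the difference between ages was called for none of the 18.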

How the data were processed

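Sorted striatal cells were measured on Affymetrix mouse arrays. The deposited values are log2 signals of 45101 probe sets. Per the submitters' processing notes, the authors used affy, RMA and limma, with no version given in the sources used here. RMA subtracts background, equalises the distributions of arrays and summarises probes, which compresses fold changes of dim genes. Depth does not apply to arrays, and the number of samples limits the precision.

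Of the probe sets, 34958 had 1 symbol, 932 had several and 9211 had none. Each gene was read from its brightest probe set on average, which gave 18194 genes. Genes below the 40th percentile of probe set means in the astrocyte arrays were left out. In fits of 2 fractions, a gene was tested if its mean reached the 40th percentile of either fraction. Where genes of other fractions are said to lie below the filter level, the level is that of the astrocyte arrays (5.52). Tests used limma 3.58.1 in R 4.3.3 (lmFit, eBayes, two-sided) in 1 fit of the 21 astrocyte arrays (R6/2 and WT at 6 and 12 weeks), and differences between fractions used fits of 20 arrays with an interaction term. The code was tested on simulated data with 200 changed genes. A replicate block was possible only for fractions, which share sample numbers.

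Named genes were the 15 called genes with the highest and the 15 with the lowest fold change, up to 4 called members of each list or its 2 of smallest p, members of the cholesterol and interferon lists, sort and identity genes, and the 4 genes of smallest p in each direction of each difference. Srebf1, Srebf2, Insig1, Abca1, Nfya, Nfyb, Gbp6 and Smoc1 were named outside this rule after their values were seen. The comparison, lists and named genes were chosen with earlier results of these data known. 48 members of the lists had no probe set of their own and are not analysed here. Promoter windows are those of RefSeq on GRCm38.p6 and were matched by symbol.

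Alternatives were no dim filter or one at the 60th percentile, the mean of a gene's probe sets, median-centred arrays, a mean-variance trend, a fit of the 10 arrays alone, Y-linked, oligodendrocyte or endothelial marker means as covariates, array weights, the replicate block, and leaving out each sample.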

Additional observations from a re-analysis of the deposited data

Results flagged for a closer look

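Of 202 groups of 5 values checked, 16 held a sample far from the others by Dixon's criterion, and chance marks about 1 in 20 groups. R6/2 sample 8 was low in Sqle (10.34, others 10.91 to 11.03), Dhcr7 (12.00, others 12.23 to 12.31), Srebf2 (11.55, others 11.86 to 11.94) and Ifi209 (2.69, others 3.01 to 3.08). R6/2 sample 9 was low in Gfap (7.45, others 8.79 to 9.20) and high in Igf2bp3 (7.97, others 7.0 to 7.27). R6/2 sample 7 was high in Rtp4 (8.76, others 8.24 to 8.39), and R6/2 sample 6 was low in Eya4 (7.72, others 8.03 to 8.13). WT sample 3 was low in Xist (4.84, others 11.81 to 12.36) and Xaf1 (9.24, others 9.84 to 9.92), and high in Usp18 (7.03, others 6.36 to 6.55) and Dok7 (9.58, others 9.08 to 9.15). WT sample 4 was low in Rtp4 (6.88, others 7.52 to 7.69) and Cxcl10 (4.89, others 5.28 to 5.43), WT sample 5 in Oasl2 (3.49, others 4.44 to 4.67) and WT sample 1 in Oas1b (4.80, others 5.22 to 5.33).

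Effects that differed between astrocytes and microglia, as astrocyte minus microglia log2 fold change, were Irf7 -1.33, Ifit2 -2.05, Ifit3 -1.91, Oas2 -1.84, Rtp4 -1.34, Ifi209 -1.69, BE949265 -1.40, Serpind1 -1.13 and Serpinf1 -1.11 on the negative side. On the positive side they were Cxcl10 1.78, Cd109 2.28, Foxf1 2.79, Mmp2 2.29, Pou4f1 1.49, Igf2bp3 1.96, Myb 1.31, Polr2a 0.98, Mest 0.69, Slc7a8 1.30 and the cyclin gene Ccnd1 0.94. The means of Oas2, Ifi209 and Slc7a8 lay below the filter level in astrocytes in both genotypes, and those of Cd109, Foxf1, Pou4f1 and BE949265 in microglia. For these genes no effect can be read in 1 of the fractions and the values are no sizes of a difference. Slc7a8 was too dim to be tested in the astrocyte fit, though its groups did not overlap (5.35 to 5.65 in R6/2, 3.73 to 4.70 in WT samples). Of the 20 differences, 11 were called under every alternative that tested them. Cd109, 1 of these, was tested in 8 of the fits without a sample number. The rest were lost without single sample numbers, and BE949265, Igf2bp3, Myb, Pou4f1 and Serpinf1 also with the replicate block (adjusted p 0.0613 to 0.11) and Myb with the mean of its probe sets (0.90, adjusted p = 0.289): BE949265 without R6/2 8 or 9 (adjusted p 0.0527 to 0.0578), Foxf1 without WT 4 or R6/2 8 or 9 (0.0531 to 0.0578), Serpind1 without WT 2, 3 or 4 or R6/2 8 or 9 (0.051 to 0.069), and Igf2bp3 without WT 3, 4 or 5 or R6/2 8, 9 or 10 (0.0563 to 0.0761). Myb was lost without all but WT 4 and R6/2 6 (0.0546 to 0.089). Pou4f1 was lost in 8 of the 9 fits without a sample number that tested it (0.0556 to 0.11). Serpinf1 was lost without all but R6/2 7 and 8 (0.0531 to 0.129), Ccnd1 without all but R6/2 7 (0.0535 to 0.123), and Irf7 without WT 2 or 3 or R6/2 8, 9 or 10 (0.0524 to 0.0623).

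Against the negative fraction, effects in astrocytes differed by 3.64 in Foxf1, 1.5 in Myb, 1.22 in Ccnd1, -1.62 in Ntsr1, -1.57 in Dok7, -1.57 in Brinp3, -0.76 in Izumo4 and -1.40 in Eya4. Ntsr1 lay below the filter level in the negative fraction in both genotypes. With the mean of its probe sets Myb gave 0.86 (adjusted p = 0.498) and Eya4 -0.67 (adjusted p = 0.0742). Of these, Brinp3 was lost without WT 4 (adjusted p = 0.0615), Myb without WT 1, 2 or 4 or R6/2 8 or 10 (0.0559 to 0.109), Ntsr1 without WT 1 or 4 or R6/2 7 or 10 (0.058 to 0.104) and Ccnd1 without all but WT 5 and R6/2 7 (0.0507 to 0.134). Between 12 and 6 weeks, effects differed by -0.86 in Mvd, -0.73 in Idi1, -0.79 in Cyp51, -0.80 in Msmo1, -0.77 in Lcat, -1.25 in Rtn2 and -0.91 in Fam20c. They differed by 1.71 in Irf7, 1.35 in Rtp4, 1.66 in Gbp6, 2.66 in Snhg11, 1.32 in Igf2bp3, 1.27 in Uchl1, 3.03 in Kazald1, 2.98 in Fxyd6, 1.99 in the G-protein subunit gene Gng3 and 1.95 in the cilium gene Enkur. Those of Irf7, Igf2bp3 and Lcat were lost without single samples: Irf7 without WT 2, 3 or 4 or R6/2 6, 7, 9 or 10 (adjusted p 0.0617 to 0.089) or without the dim filter (0.0527), Igf2bp3 without WT 4 or R6/2 6, 7 or 10 (0.0555 to 0.0664) and Lcat without WT 2, 4 or 5 or R6/2 6, 9 or 10 (0.0522 to 0.0675).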

How the results depend on the processing

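The count of 146 genes became 656 (413 higher, 243 lower) with the mean of the oligodendrocyte markers as a covariate, 195 with the endothelial and mural mean and 110 to 187 under the other settings that kept all samples. Without each sample in turn it was 86 to 155, with 96 without WT sample 3 and 86 without R6/2 sample 8, and 82 to 128 of these were among the 146. Cholesterol genes that fell numbered 8 to 14 of 18 with all samples and 6 to 12 without a sample (6 without WT sample 1). Interferon effectors that rose numbered 8 to 20 of 37 with all samples (20 with the endothelial and mural covariate) and 8 to 11 without a sample, 8 being without R6/2 sample 8. Genes whose effect differed from microglia numbered 40 to 60 with all samples and no block, and 24 to 53 without a sample number. Those that differed from the negative fraction numbered 8 to 16, and 4 to 16 without a sample number. Those that differed between 12 and 6 weeks numbered 109 to 167, and 53 to 187 without a sample. Of the 61 called genes named, 33 kept their call and direction under every alternative that tested them, 37 without each sample in turn and 47 under the other alternatives, and 0 changed sign. Genes below the dim filter of an alternative were not tested there. The cause of these shifts was not tested.

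No paired analysis was possible because R6/2 and WT samples share no replicate numbers. Between fractions, the correlation of deviations of same-numbered samples was 0.02 to 0.24 with microglia and -0.02 to 0.43 with the negative fraction, over 0.1 in 7 and 6 of 10 pairs. The labels do not say whether a number marks 1 pool, but WT number 3 alone was low in Xist in all 3 fractions, so fits with and without the block are both given. With the replicate block, 36 genes differed from microglia (22 more positive, 14 more negative) and 19 from the negative fraction (6 more positive, 13 more negative). The block ended the call of the difference from microglia in 5 named genes, BE949265 (adjusted p = 0.0613), Igf2bp3 (0.0796), Myb (0.0696), Pou4f1 (0.11) and Serpinf1 (0.0961). Samples correlated best with their own number in 6 and 5 of 10 cases.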
